A study of Mus musculus with 468 samples.

Results

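Adipose libraries with high and with low Mest transcript were compared in Diversity Outbred mice, an outbred stock in which the genomes of several inbred founder strains are shuffled so that nearly every animal has its own genotype. The libraries were chosen by their own Mest value. All adipose libraries of the series, 1 per mouse, were first divided by whether they held counts of Ddx3y, a gene of the Y chromosome, and 48.5% held none (called Ddx3y-negative below) while 51.5% held some (Ddx3y-positive). Within each set, the 25% of libraries with the highest and the 25% with the lowest Mest CPM (the expected count per 1000000 counts of the library) were taken as the high-Mest and low-Mest groups. This gave 56 high and 56 low libraries among the Ddx3y-negative ones and 60 high and 60 low among the Ddx3y-positive ones, together 49.6% of all libraries. The others are called the middle libraries. All animals had received a high-fat, high-sugar diet labelled as 45 percent fat, and the study's methods name the gonadal fat pad as the tissue. The labels give neither sex, age, generation, body weight nor batch, and no mouse was assigned to a treatment, so each comparison below is one between animals that differed in Mest and in whatever varied with it.

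Mest (mesoderm specific transcript, also called Peg1) is an imprinted gene that is read from the paternal copy. It encodes a protein of the endoplasmic reticulum with an alpha/beta hydrolase fold, and its transcript is known to climb when the fat cells of a mouse enlarge on a rich diet and to differ many-fold even among genetically identical animals. Sfrp5, Bmp3, Npr3 and the caveolar genes Cav1 and Cavin1 are often described together with it as markers of fat expansion. Those facts are background and were not measured here.

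**Figure D1:**
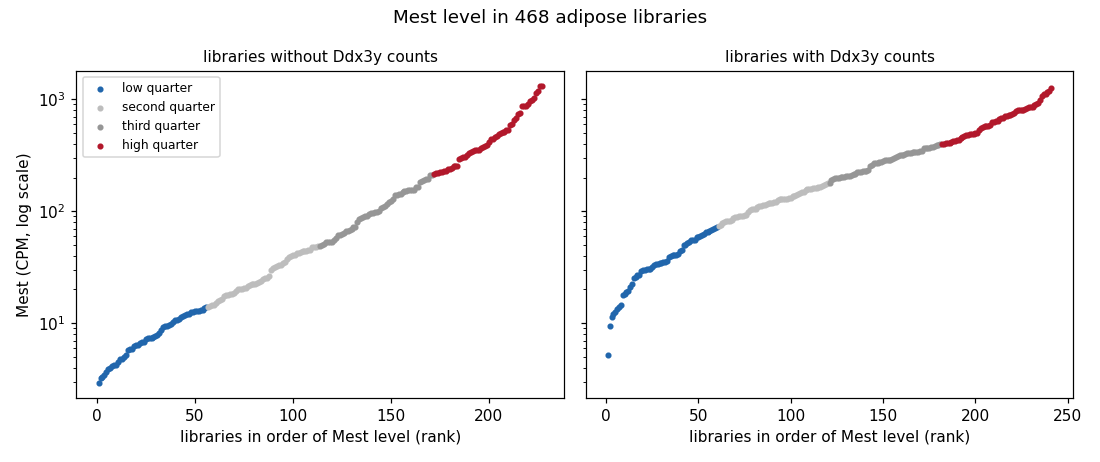
Mest in every adipose library (CPM, log axis) against its rank, separately for Ddx3y-negative (left) and Ddx3y-positive libraries (right), with 1 point per library. Blue points form the low-Mest group, red points the high-Mest group and grey points the middle libraries, and the curve runs without a step across both limits of the groups.

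Mest (ENSMUSG00000051855, GRCm38 chromosome 6, 30723547 to 30748465, plus strand) spread 453.6-fold between the lowest and the highest Ddx3y-negative library and 242.9-fold among the Ddx3y-positive ones. Low-Mest libraries without Ddx3y counts held 2.92 to 13.9 CPM (median 7.51) and high-Mest ones 213.1 to 1325 CPM (median 402.6). With Ddx3y counts, the low group ran from 5.18 to 72.7 CPM (median 34.8) and the high group from 400.5 to 1259 CPM (median 642.7). The groups were thus cut at different levels: the lowest high-Mest library without Ddx3y counts had less Mest than many middle libraries with them, whose values ran from 74.1 to 397.7 CPM. At the edges, the last low library lay at 13.91 CPM and the next one outside at 13.94 CPM among Ddx3y-negative libraries (72.7 and 74.1 CPM among the others), and the first high library at 213.1 CPM with the next one outside at 211.1 CPM (400.5 and 397.7 CPM). These values chose the groups and are given as a description.

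Mest is transcribed from more than 1 start site. One RefSeq start on GRCm38.p6 has 14 CG dinucleotides in the 250 bases before it, against 7 before a start farther upstream, and is preceded by the following bases (chr6:30737800-30738049, plus strand, 5′ to 3′, CG pairs in capitals). They are shown because methylation of CG pairs at this promoter is what silences the maternal copy in general knowledge of the gene. Methylation was not measured here.
Mest upstream: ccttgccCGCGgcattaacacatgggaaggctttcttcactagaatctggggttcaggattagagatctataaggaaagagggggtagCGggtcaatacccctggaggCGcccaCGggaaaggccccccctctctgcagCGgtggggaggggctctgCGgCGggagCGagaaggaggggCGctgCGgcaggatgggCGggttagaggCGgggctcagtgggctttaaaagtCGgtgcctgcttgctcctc

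An intron of Mest holds the gene of the microRNA miR-335. Its mature 5p arm is given from RefSeq with the seed, bases 2 to 8, in capitals (chr6:30741314-30741336, plus strand), because it is a second product of the locus that libraries of polyadenylated RNA do not measure.
mmu-miR-335-5p: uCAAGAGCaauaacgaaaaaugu

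Every other gene past a filter on low counts, 18370 in all, was tested for a difference between the high-Mest and the low-Mest group, separately in both sets of libraries, by the quasi-likelihood test of edgeR with Benjamini-Hochberg adjustment over all tested genes and a threshold of 0.05. Differences are on the log2 scale, high minus low, with an approximate standard error (SE). This SE is the absolute log2 difference divided by the square root of the F statistic of the test. A gene is called where its adjusted p was under that threshold. Levels are CPM scaled by the TMM factor of edgeR (scaled CPM), except for Mest itself. Where a pair of values is given, the first belongs to the Ddx3y-negative set and the second to the Ddx3y-positive set. In Ddx3y-negative libraries, 4719 genes (25.7% of those tested) were higher and 4959 (27%) lower with high Mest. In Ddx3y-positive libraries, 1584 (8.62%) were higher and 3608 (19.6%) lower. Both sets called 1322 genes higher (7.2%) and 2508 lower (13.7%), and 59 genes were called in opposite directions. The genes higher in both were 28% of those called higher in Ddx3y-negative and 83.5% of those called higher in Ddx3y-positive libraries, and the genes lower in both were 50.6% and 69.5% of the lower calls.

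These shares are the background for every count below, since in the Ddx3y-negative libraries more than 1 gene in 2 was called. Large differences were rarer. Of the called genes, 400 were at least 2-fold higher and 270 at least 2-fold lower in Ddx3y-negative libraries, against 38 and 240 in Ddx3y-positive ones. In no gene, in either set, did the values of the high-Mest and low-Mest groups fail to overlap. The balance of higher and lower calls depended on the scaling. With TMM scaling the median log2 difference over all genes was -0.0054 in Ddx3y-negative libraries and 48.8% of the calls were higher. Without it the median was 0.13 and 78.2% were higher (8033 genes higher, 2242 lower). In Ddx3y-positive libraries the medians were -0.033 and -0.011, with 30.5% and 38.5% of the calls higher. Differences of about that size near 0 therefore have no fixed direction.

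**Figure D2:**
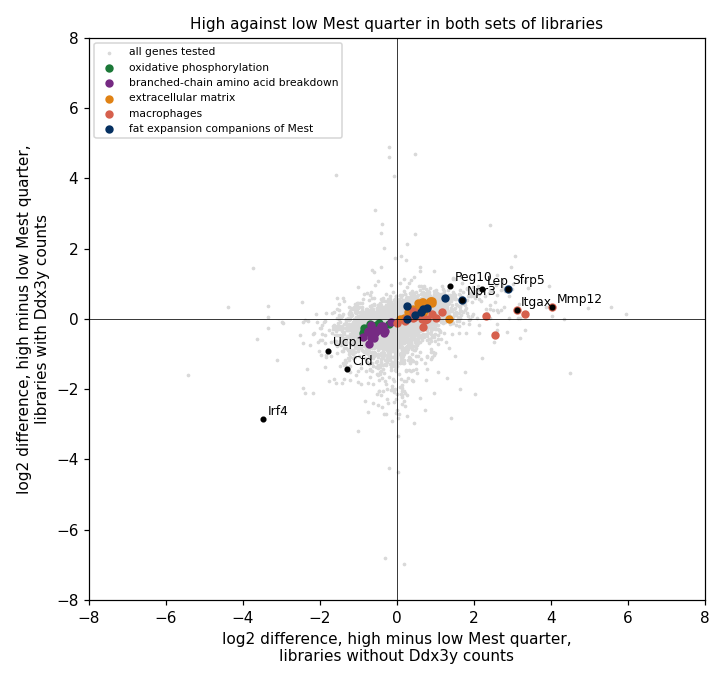
Log2 difference between the high-Mest and low-Mest group of each tested gene in Ddx3y-negative (x axis) and Ddx3y-positive libraries (y axis), on equal axes, with 1 point per gene. Colours mark 5 gene lists, black points are named genes. Matrix and companion genes lie to the upper right, mitochondrial and amino acid genes to the lower left, and the macrophage genes stretch along the x axis, up to Mmp12 at 4.04 and 0.33.

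Of the companions of Mest that the literature of fat expansion names, 9 of 9 were higher in Ddx3y-negative libraries (median log2 difference of the list 0.68) and 7 of 9 in Ddx3y-positive ones (median 0.31). Sfrp5 (ENSMUSG00000018822, chromosome 19, 42197971 to 42202252), a secreted frizzled-related protein that binds Wnt ligands, spanned 0.529 to 55.2 scaled CPM (median 5.68) in the low-Mest group and 4.74 to 211.7 (median 69.4) in the high-Mest group of the Ddx3y-negative libraries. Its log2 difference was 2.89 ± 0.25, adjusted p = 9.43e-22, and 55 of 56 high-Mest libraries lay above the low-Mest median. Among Ddx3y-positive libraries Sfrp5 started from a far higher level, with 5.1 to 420.7 scaled CPM (median 110.4) in the low-Mest group and 69.7 to 488.4 (median 205.1) in the high-Mest group, and the difference was 0.86 ± 0.23, adjusted p = 0.00156.

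Npr3, the clearance receptor of natriuretic peptides, spanned 50.2 to 1480 scaled CPM (median 272.4) in the low-Mest group and 359.2 to 1972 (median 1124) in the high-Mest group without Ddx3y counts, a difference of 1.69 ± 0.14, adjusted p = 5.47e-23. With them it spanned 141.01 to 2132 scaled CPM (median 1182) in the low-Mest group and 948.2 to 2401 (median 1631) in the high-Mest group (0.55 ± 0.13, adjusted p = 0.000549). All 56 high-Mest libraries without Ddx3y counts exceeded the low-Mest median of Npr3, although both groups overlapped in range. Bmp3, a ligand of the BMP family that antagonises others, differed by 1.26 ± 0.15 and 0.61 ± 0.14 in the Ddx3y-negative and Ddx3y-positive libraries (adjusted p = 6.66e-14 and 0.000319). Cav1, the main protein of caveolae, differed by 0.68 ± 0.07 and 0.28 ± 0.07 (adjusted p = 1.59e-17 and 0.000318), and its partner Cav2 by 0.63 and 0.19. The coat proteins Cavin1 and Cavin2 were called only among Ddx3y-negative libraries (0.46 and 0.27), with values of 0.10 and -0.01 in the others (adjusted p = 0.227 and 0.949). Nkd1, an inhibitor of Wnt signalling, differed by 0.79 and 0.31, and Vldlr, the receptor of very low density lipoprotein, by 0.28 and 0.36. The difference was smaller in Ddx3y-positive libraries by a test of the difference itself for 8 of the 9 genes, the exception being Vldlr (0.08 ± 0.11, adjusted p = 0.654). By comparison, 8.25% of all genes had a larger and 11.6% a smaller log2 difference in the Ddx3y-positive libraries at that threshold. These shares depend on the scaling and the model: the 1515 larger and 2128 smaller differences behind them became 717 and 5634 without TMM scaling, and limma on log2 CPM gave 1146 smaller ones.

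**Figure D3:**
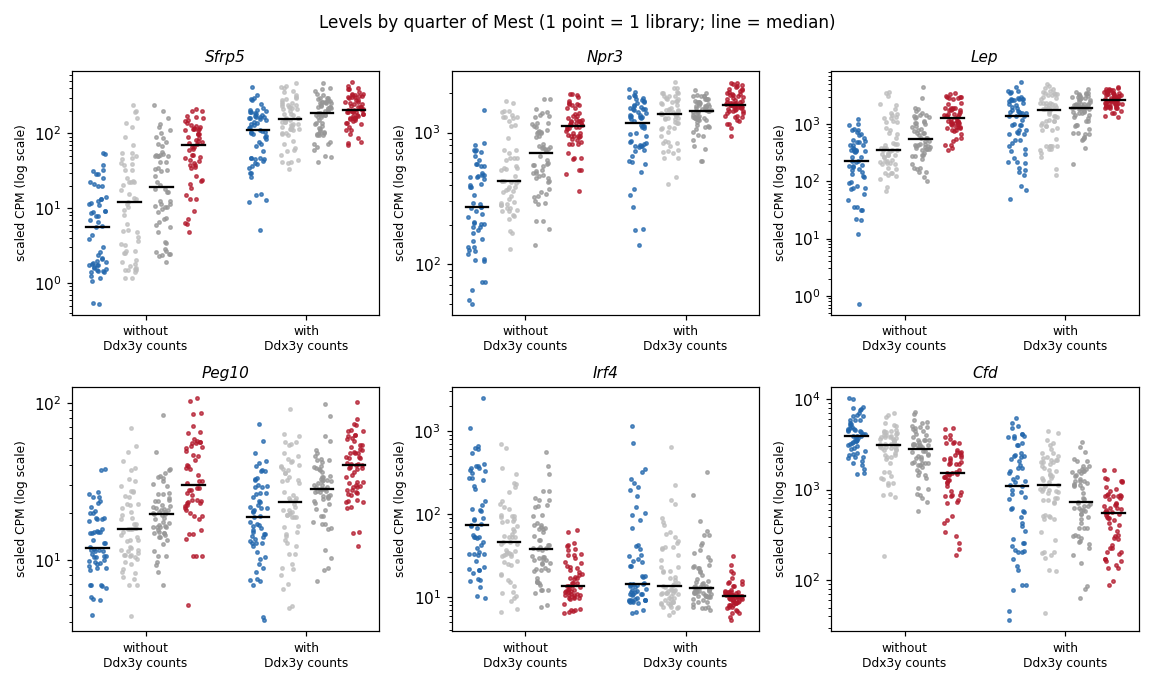
Scaled CPM (log axis) of Sfrp5, Npr3, Lep, Peg10, Irf4 and Cfd in every library, with 1 point per library and a line at the median, from the low-Mest group (blue) through both groups of middle libraries (grey) to the high-Mest group (red). The medians of Lep climb from 224.8 to 1265 without Ddx3y counts, and Irf4 keeps a long upper tail in the low-Mest groups.

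Among the genes called higher in both sets, 11 are described here, chosen for the largest smaller difference of both. Peg10, an imprinted gene derived from a retrotransposon and also read from the paternal copy, led them, with 4.45 to 37.8 scaled CPM (median 12) in the low-Mest group and 5.14 to 107.4 (median 29.8) in the high-Mest group among Ddx3y-negative and 4.14 to 73.1 scaled CPM (median 18.9) in the low-Mest group and 12.3 to 101.5 (median 40.2) in the high-Mest group among Ddx3y-positive libraries. It differed by 1.39 ± 0.15, adjusted p = 3.2e-16 and by 0.95 ± 0.14, adjusted p = 2.42e-08, and the difference between these values did not pass its test (-0.44 ± 0.20, adjusted p = 0.104). Oxtr, the receptor of oxytocin, differed by 0.87 in both sets (adjusted p = 0.00122 and 0.00217), with medians from 28 to 97 scaled CPM and from 57.3 to 155.3 scaled CPM.

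Lep encodes leptin, the hormone by which fat reports its stores to the brain. It spanned 0.726 to 1213 scaled CPM (median 224.8) in the low-Mest group and 357.6 to 3445 (median 1265) in the high-Mest group of the Ddx3y-negative libraries, so that its group medians over the 4 steps of Mest were 224.8, 357.4, 541.2 and 1265 scaled CPM. The difference was 2.22 ± 0.23, adjusted p = 2.86e-17. Ddx3y-positive libraries held 48.4 to 5467 scaled CPM (median 1378) in the low-Mest group and 1345 to 4460 (median 2589) in the high-Mest group, a difference of 0.84 ± 0.21, adjusted p = 0.000813. The lowest high-Mest library without Ddx3y counts had more Lep than the low-Mest median, and the range of the high group lay inside that of the low group with Ddx3y counts.

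These 11 also held Slc5a7, the choline transporter of nerve endings (3.41 and 0.87), the calcium channel gene Cacna1e (1.81 and 0.86), Plppr4 (2.00 and 0.78), Fgf13, which binds sodium channels (1.94 and 0.74), the guanine nucleotide exchange factor Dock8 (0.97 and 0.78), Igfals, a partner of circulating IGF (0.84 and 0.72), and 1700047G03Rik (2.99 and 0.84). Slc5a7 was near absent in low-Mest libraries without Ddx3y counts (median 0.652 scaled CPM) and had a median of 11.7 in the high ones, against 34.1 to 92.6 scaled CPM with Ddx3y counts. Blocks of numbers were taken because the labels name no batch. In 5 blocks of consecutive mouse numbers and 5 of consecutive library numbers, all 11 genes kept their direction in every block of both sets. This is by the mean log2 difference. The genes had been chosen for large differences in these same libraries, so their agreement over blocks is a description and no independent check.

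The other direction was led by Irf4, a transcription factor of fat cells and immune cells that is known to be induced by fasting. It ran over 9.9 to 2483 scaled CPM (median 74.5) in the low-Mest group and 6.5 to 64.9 (median 13.8) in the high-Mest group of Ddx3y-negative libraries and over 6.55 to 1133 scaled CPM (median 14.4) in the low-Mest group and 5.35 to 31 (median 10.4) in the high-Mest group of Ddx3y-positive ones. The differences were -3.48 ± 0.32, adjusted p = 5.01e-20 and -2.86 ± 0.30, adjusted p = 6.55e-15. None of the 56 high-Mest libraries without Ddx3y counts reached the low-Mest median, while in the Ddx3y-positive set the medians were close and no high-Mest library exceeded 31 scaled CPM (on the log scale, limma gave -1.32, adjusted p = 2.65e-05). Cfd encodes adipsin, the complement factor D that fat cells secrete. Its levels were 1467 to 10154 scaled CPM (median 3882) in the low-Mest group and 191.2 to 4796 (median 1501) in the high-Mest group for Ddx3y-negative and 36.6 to 6065 scaled CPM (median 1102) in the low-Mest group and 89.4 to 1646 (median 557.9) in the high-Mest group for Ddx3y-positive libraries, and it differed by -1.29 ± 0.22, adjusted p = 1.23e-07 and -1.44 ± 0.21, adjusted p = 2.5e-08.

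Acsm3, a mitochondrial acyl-CoA synthetase of medium-chain fatty acids, differed by -2.39 ± 0.27 and -2.11 ± 0.26. Cyp2e1, a cytochrome P450 that liver and fat share, had medians from 3001 to 1057 scaled CPM and from 1213 to 451.2 scaled CPM and differed by -1.57 ± 0.27 and -1.83 ± 0.26. Fam13a, a regulator of fat cell size and insulin action in general knowledge, differed by -1.21 and -1.73, the transcription factor Mycl by -1.27 and -1.12, Rgs2, a brake on G protein signalling, by -1.72 and -1.04, the mitochondrial sulfurtransferase Tst by -1.84 and -1.04, the amino acid transporter Slc43a1 by -1.18 and -0.96, and 2010016I18Rik by -0.93 and -1.85. The remaining one is Pus7l, which encodes a pseudouridine synthase. Its medians hardly differed (3.91 to 3.87 scaled CPM and 3.76 to 3.68 scaled CPM), low-Mest libraries reached up to 377.97 and 724.1 scaled CPM, and while edgeR called it (-1.23 and -1.51), limma on log2 CPM did not (-0.10, adjusted p = 0.753 and -0.33, adjusted p = 0.314). It was also the only one of the 11 lower genes described that changed sign in some block of numbers.

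Fat cell mitochondria oxidise fuels through the respiratory chain, and white fat burns branched-chain amino acids by a dedicated set of enzymes. The subunits of oxidative phosphorylation were lower in 25 of 25 genes among Ddx3y-negative libraries, with a median log2 difference of -0.67, and in 22 of 25 among Ddx3y-positive ones, with a median of -0.26. Over all genes the lower calls made up 27% and 19.6%. Atp5b, the catalytic subunit of ATP synthase, had 1122 to 5197 scaled CPM (median 2390) in the low-Mest group and 749.1 to 3618 (median 1408) in the high-Mest group without Ddx3y counts and 691.6 to 2315 scaled CPM (median 1247) in the low-Mest group and 708.6 to 1553 (median 1037) in the high-Mest group with them. It differed by -0.65 ± 0.08, adjusted p = 8.38e-12 and -0.31 ± 0.08, adjusted p = 0.00143. Only a few high-Mest libraries lay above the low-Mest median of Atp5b, 5 of 56 and 5 of 60. Sdha, the flavoprotein of complex II, differed by -0.84 ± 0.09 and -0.40 ± 0.09, and Uqcrc2, a core subunit of complex III, by -0.88 and -0.40. For 21 of the 25 the difference was nearer 0 in Ddx3y-positive libraries by the test of the difference.

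The count in Ddx3y-positive libraries changed with the libraries and covariates used. Leaving out the libraries in the top 5% by the summed transcripts of other tissues (9 low-Mest and 0 high-Mest libraries of this set) left 6 of 25 oxidative phosphorylation genes called lower, at a median of -0.18, and a score of macrophage genes as a covariate left 3 of 25. Cyp2e1 makes up most of that sum. With Cyp2e1 left out of it, an alternative chosen after seeing the data, 19 of the 25 were called. The corresponding counts without Ddx3y counts were 25, 24 and 25 of 25. Over all genes, lower calls with Ddx3y counts numbered 3608 of 18370 in the main fit. They numbered 1812 without libraries high in other tissues, 3316 with Cyp2e1 left out of the sum and 2131 with the macrophage covariate. The 3 of 25 under that covariate thus lay near the share of all genes, while the 6 and 19 of 25 lay above theirs.

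Enzymes of branched-chain amino acid breakdown were lower in 20 of 20 and in 18 of 20 genes (medians -0.58 and -0.35). Bcat2, the mitochondrial aminotransferase that opens the pathway, differed by -0.72 ± 0.10, adjusted p = 1.72e-10 in Ddx3y-negative and -0.70 ± 0.10, adjusted p = 2.72e-09 in Ddx3y-positive libraries, at medians from 97.6 to 65.6 scaled CPM and from 71.1 to 55.1 scaled CPM. Aldh6a1, of the valine branch, differed by -0.68 ± 0.09 and -0.53 ± 0.09, and Bckdha, a subunit of the committed dehydrogenase, by -0.88 and -0.51. Here the difference between both sets passed its test for 5 of the 20 genes. With the macrophage score as a covariate, 15 and 11 of 20 remained below the threshold.

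Thermogenic genes were lower mainly in Ddx3y-negative libraries. Ucp1, the uncoupling protein of brown and beige fat, had group medians over the 4 steps of Mest of 568.4, 687.5, 533.2 and 51.1 scaled CPM among Ddx3y-negative libraries, with 1.27 to 4572 scaled CPM (median 568.4) in the low-Mest group and 0.839 to 2637 (median 51.1) in the high-Mest group. Its difference there was -1.79 ± 0.39, adjusted p = 2.54e-05. Ddx3y-positive libraries held little of it at any Mest level (medians 4.6, 1.84, 3.14 and 2.42 scaled CPM), with a difference of -0.91 ± 0.37, adjusted p = 0.051. Over the list of thermogenesis, 13 of 13 genes were lower without Ddx3y counts, at a median of -1.54, and 3 of 13 with them, at a median of -0.21. Lower calls made up 27% and 19.6% of all genes, so the 3 of 13 lay near the share of its set. Cidea, a lipid droplet protein, differed by -1.88 ± 0.27 and -0.69 ± 0.25, and Cpt1b, which passes fatty acids into mitochondria, by -1.54 ± 0.23 and -0.21 ± 0.22. Ppargc1a and Ebf2, regulators of the thermogenic program, completed the 3 genes lower with Ddx3y counts. The difference between the sets passed its test in 10 of 13 genes, but for Ucp1 itself it did not (0.88 ± 0.53, adjusted p = 0.241).

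**Figure D4:**
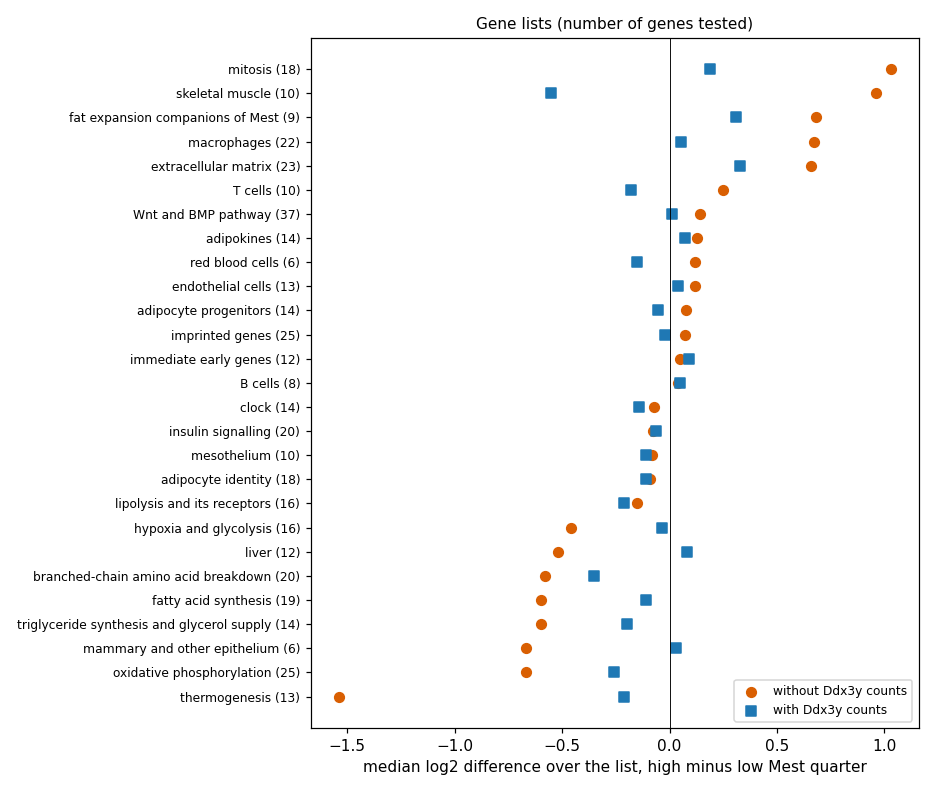
Median log2 difference between the high-Mest and the low-Mest group over each gene list with at least 6 tested members, in Ddx3y-negative (orange circles) and Ddx3y-positive libraries (blue squares), with the number of tested genes in parentheses. The circles spread from -1.54 for thermogenesis to 1.03 for mitosis, and most squares lie nearer 0.

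The enzymes that build fatty acids from sugar were lower mainly in Ddx3y-negative libraries, where 15 of 19 fell below the threshold in that direction and 1 was higher (median -0.60). In Ddx3y-positive libraries 4 were lower and 1 was higher (median -0.11). Over all genes, lower calls made up 27% and 19.6%, so the 4 of 19 lay near the share of that set. Fasn, the fatty acid synthase, had medians of 19676, 15681, 12999 and 7557 scaled CPM over the 4 steps of Mest without Ddx3y counts and 4727, 4883, 4968 and 4915 scaled CPM with them. It differed by -1.15 ± 0.15, adjusted p = 2.41e-11 and -0.25 ± 0.15, adjusted p = 0.191, with a tested difference of 0.89 ± 0.21, adjusted p = 0.000869 between both. Acaca and Acacb, the acetyl-CoA carboxylases, differed by -1.22 ± 0.17 and -1.58 ± 0.17 in the first set and by -0.69 ± 0.16 and -0.62 ± 0.16 in the second. Elovl6, which lengthens palmitate, went from 485.6 to 154.1 scaled CPM in the Ddx3y-negative medians (-1.46 ± 0.24, adjusted p = 2.46e-08) and differed by 0.07 ± 0.22, adjusted p = 0.862 in the other set. The desaturase Scd1, the most abundant transcript of the list, showed no call in either set (-0.05 ± 0.10 and -0.06 ± 0.09), and Scd2 was higher in both (0.37 and 0.41). Thrsp and Fads1 were the remaining genes of the list called lower with Ddx3y counts. Without libraries high in other tissues, a sum made up mostly of Cyp2e1, 1 of the 4 genes lower in fatty acid synthesis there stayed past the threshold.

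Triglyceride synthesis and glycerol supply gave 11 lower and 1 higher of 14 genes without Ddx3y counts and 7 lower and 1 higher with them (medians -0.60 and -0.20). Without libraries high in other tissues, by the same sum made up mostly of Cyp2e1, triglyceride synthesis and glycerol supply kept 11 and 3 lower genes. Pck1, which supplies glycerol in fat, differed by -0.65 ± 0.13 and -0.48 ± 0.13. Dgat2, the enzyme of the last step, was the higher one in both (0.38 ± 0.10 and 0.29 ± 0.10). For lipolysis and its receptors, each set had 7 of 16 genes lower and 1 higher (medians -0.15 and -0.21), and no difference between the sets passed its test. Pnpla2, the lipase ATGL, differed by -0.48 ± 0.09 and -0.34 ± 0.08, and Adrb3, the beta3-adrenergic receptor, by -0.32 ± 0.14 and -0.52 ± 0.14. With the macrophage score as a covariate Adrb3 changed sign without Ddx3y counts, to 0.14 (adjusted p = 0.386). The covariate left 4 higher and 3 lower lipolysis genes there and 0 higher and 1 lower in the other set, and without TMM scaling the first split was 3 and 4. The one called higher was Adora1, the adenosine A1 receptor (0.25 and 0.20).

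Of 20 genes of insulin signalling, 10 were lower and 3 higher in Ddx3y-negative libraries, and 3 were lower and 1 higher in Ddx3y-positive ones (medians -0.076 and -0.063). Lower calls made up 27% and 19.6% of all genes. Insr and Irs1, the insulin receptor and its first substrate, were lower in both sets (-0.40 and -0.52 without, -0.25 and -0.48 with Ddx3y counts). Tbc1d4, which gates glucose transporters, completed the lower genes of the second set. Enpp1, an ectoenzyme that binds the receptor, was higher in both (0.43 and 0.67), and Grb14 was higher in the first. Without TMM scaling the split without Ddx3y counts turned to 7 higher and 3 lower, so this list has no firm direction there. Glycolysis and hypoxia genes were lower in 10 of 16 in Ddx3y-negative libraries, where Pfkl had a value of -0.90 and Eno1 of -0.80, while 1 (Egln3) was lower and 1 (Adm) higher in Ddx3y-positive ones (medians -0.46 and -0.037). The difference between the sets passed its test for 9 of the 16.

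Among 14 secreted products of fat, 7 were higher and 3 lower in the Ddx3y-negative set, and 5 and 3 in the Ddx3y-positive set (medians 0.13 and 0.073). Higher calls made up 25.7% and 8.62% of all genes, and lower calls 27% and 19.6%. Beside Lep and Cfd, which were called in both, Apln, which encodes apelin, was higher in both (0.85 ± 0.13 and 0.56 ± 0.12) and Nampt lower in both (-0.66 and -0.29). Adipoq, which encodes adiponectin, was called in neither (0.13 ± 0.09, adjusted p = 0.229 and -0.13 ± 0.09, adjusted p = 0.284). Angptl4, an inhibitor of lipoprotein lipase, was among the 5 higher with Ddx3y counts and Retn, which encodes resistin, among the 3 lower, and Nrg4 among the 3 lower without them. Fgf21, a fasting hormone, was called higher only with Ddx3y counts (-0.05 and 0.56, 0.61 ± 0.23, adjusted p = 0.0452 for the difference).

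Wnt ligands, receptors and inhibitors and members of the BMP pathway were also tested. Of 37, 18 were higher and 2 lower in Ddx3y-negative libraries and 7 higher and 5 lower in Ddx3y-positive ones (medians 0.14 and 0.010). Fzd4, a frizzled receptor, had medians from 415.98 to 645.4 scaled CPM and from 578.1 to 679.4 scaled CPM and differed by 0.63 ± 0.06 and 0.24 ± 0.06. Inhbb, a subunit of activin B, differed by 0.93 ± 0.10 and 0.31 ± 0.10. Ctnnb1, which encodes beta-catenin, differed by only 0.07 in each set, with an adjusted p of 0.000828 and 0.00421, a size that the scaling above could shift. The BMP target Id1 was lower in both sets (-0.46 and -0.48). Tcf7l2, Acvr1c and Fst were also lower in the Ddx3y-positive set.

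Extracellular matrix genes were higher in 20 of 23 without and in 11 of 23 with Ddx3y counts, against 25.7% and 8.62% of all genes (medians 0.66 and 0.33). Sparc, a matrix protein that binds collagen, had 674.8 to 2693 scaled CPM (median 1422) in the low-Mest group and 1669 to 4161 (median 2593) in the high-Mest group among Ddx3y-negative libraries (0.85 ± 0.09, adjusted p = 5.27e-17) and 651.4 to 4997 scaled CPM (median 2541) in the low-Mest group and 2064 to 5055 (median 3814) in the high-Mest group among Ddx3y-positive ones (0.50 ± 0.08, adjusted p = 7.37e-07). All 56 high-Mest libraries of the first set exceeded the low-Mest median of Sparc. The basement membrane collagen gene Col4a1 differed by 0.59 ± 0.07 and 0.38 ± 0.07, and Col6a2, of the beaded collagen around fat cells, by 0.91 ± 0.12 and 0.47 ± 0.11. The fibrillar collagen gene Col3a1 was called in the first set (0.43 ± 0.14 and 0.29 ± 0.13, difference -0.14 ± 0.19, adjusted p = 0.658), and with the macrophage score as a covariate it changed sign there, to -0.099 (adjusted p = 0.435). On log2 values limma called 22 and 19 of the 23 matrix genes higher, and without the libraries highest in the macrophage score edgeR called 19 and 18.

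Macrophage genes were higher in Ddx3y-negative libraries, and their call in the other set depended on the test. In Ddx3y-negative libraries 19 of 22 were higher with a median of 0.67, and in Ddx3y-positive ones 0 of 22 were called by edgeR with a median of 0.054. The difference between the sets passed its test in 15 of 22. Adgre1, which encodes F4/80, ranged over 10.8 to 87.9 scaled CPM (median 36.1) in the low-Mest group and 20.7 to 216.5 (median 47) in the high-Mest group without Ddx3y counts (0.66 ± 0.16, adjusted p = 0.000293). With them it ranged over 14.9 to 577.3 scaled CPM (median 52.8) in the low-Mest group and 31.7 to 307.6 (median 80.2) in the high-Mest group (-0.01 ± 0.16, adjusted p = 0.981). No difference in means was detected there, yet 52 of 60 high-Mest libraries lay above the low-Mest median, and the highest value of all belonged to the low group. Itgax, which encodes CD11c, spanned 0.32 to 9.69 scaled CPM (median 1.83) in the low-Mest group and 0.978 to 110.1 (median 9.2) in the high-Mest group without and 1.23 to 443.02 scaled CPM (median 16) in the low-Mest group and 9.16 to 365.2 (median 54) in the high-Mest group with Ddx3y counts. By edgeR it differed by 3.11 ± 0.34, adjusted p = 1.01e-15 and 0.25 ± 0.30, adjusted p = 0.578. In limma on log2 CPM, where single high libraries weigh less, the second value was 1.40, adjusted p = 0.000251, and that model called 9 of the 22 macrophage genes higher in Ddx3y-positive libraries. Mmp12, a protease of macrophages, differed by 4.04 ± 0.41 and 0.33 ± 0.34 in edgeR, and by 1.78, adjusted p = 9.41e-05 in limma for the second set. Gpnmb, of lipid-laden macrophages, differed by 2.32 ± 0.33 and 0.08 ± 0.30, whereas Trem2, another marker of such cells, was called in neither set (0.42 ± 0.28 and 0.23 ± 0.27).

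**Figure D5:**
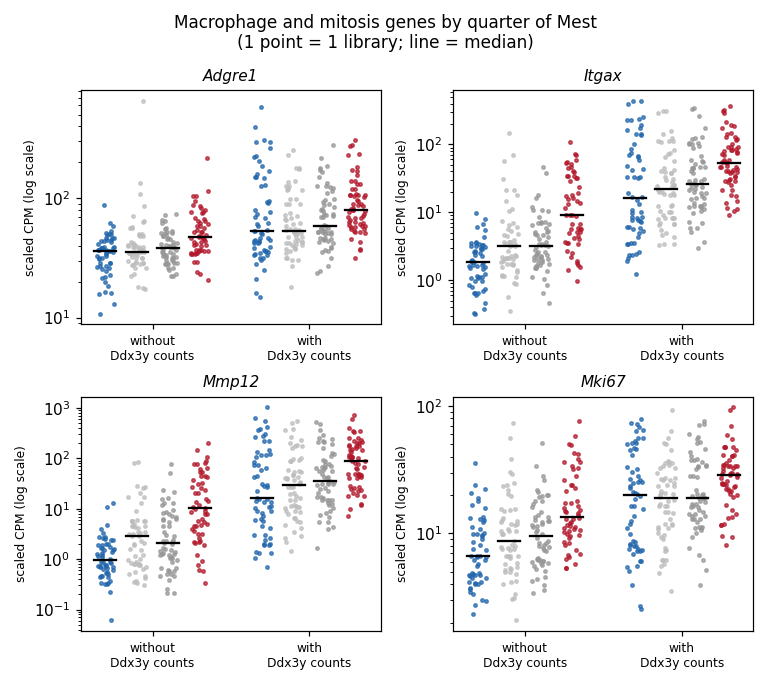
Scaled CPM (log axis) of Adgre1, Itgax, Mmp12 and Mki67 in every library, with 1 point per library and a line at the median, from the low-Mest group (blue) to the high-Mest group (red). With Ddx3y counts the medians are highest in the high-Mest group, yet for Adgre1, Itgax and Mmp12 the highest low-Mest library lies above the highest high-Mest one, as for Adgre1 at 577.3 against at most 307.6.

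Bulk RNA cannot tell more cells of a type from more RNA per cell, for these and all cell type genes. The summed level of the macrophage list was 453.3 to 1947 scaled CPM (median 1120) in the low-Mest and 801.2 to 4172 (median 1581) in the high-Mest group without Ddx3y counts, and 474.8 to 10232 (median 1705) and 1151 to 6990 (median 2312) with them. What part macrophage content has in the other differences was not tested beyond the covariate fit. In that fit, called genes fell from 4719 higher and 4959 lower to 3185 and 3469 without Ddx3y counts, and from 1584 and 3608 to 1207 and 2131 with them. Fabp4, Plin1 and Cidec, which fat cells express, were called in neither set, and Plin1 changed sign under the covariate in Ddx3y-negative libraries, to 0.178 (adjusted p = 0.00543), as did Scd1, to 0.252 (adjusted p = 0.00914).

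Genes of mitosis gave counts much like these. Of 18, 17 were higher without Ddx3y counts, at a median of 1.03, and 0 with them by edgeR, at a median of 0.19. The difference between the sets passed its test in 16. Mki67, a protein of dividing cells, spanned 2.36 to 35.9 scaled CPM (median 6.62) in the low-Mest group and 5.38 to 76.2 (median 13.6) in the high-Mest group in the first set (1.15 ± 0.19, adjusted p = 4.44e-08) and 2.57 to 78.5 scaled CPM (median 20.1) in the low-Mest group and 8.13 to 97.5 (median 28.9) in the high-Mest group in the second (0.27 ± 0.18, adjusted p = 0.271). In limma the second value was 0.61, adjusted p = 0.00662, and 13 of the 18 were called higher there. Top2a, which untangles DNA, differed by 1.05 ± 0.18 and 0.22 ± 0.18. With the macrophage score as a covariate, 8 and 0 of the 18 mitosis genes were called, all higher.

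Genes whose difference between high and low Mest itself differed between the sets were named by the smallest p of that test. With the value in Ddx3y-positive libraries above the other, these were Elovl5, a fatty acid elongase (-0.60 and 0.06, 0.66 ± 0.08, adjusted p = 8.94e-11 for the difference), Adtrp, a hydrolase of fatty acid esters (-1.52 and -0.19), the kinase Pim1 (-1.41 and -0.20), Echdc1, which removes a faulty product of fatty acid synthesis (-0.93 and -0.06), and the acyl-CoA synthetase Acsl5 (-0.89 and 0.10). All 5 were lower with high Mest in Ddx3y-negative libraries and called in neither direction in the others. Elovl5 had medians of 187.3, 172.1, 146.98 and 135.6 scaled CPM over the 4 steps of Mest without Ddx3y counts, and 127.5, 129.9, 130.5 and 134.9 scaled CPM with them.

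In the other direction stood Tph2, the serotonin-making enzyme of neurons (5.57 and 0.33, -5.24 ± 0.69, adjusted p = 1.98e-09), the macrophage genes Mmp12, Atp6v0d2 (3.32 and 0.15) and Itgax, and Nedd9, a docking protein of adhesion sites (1.08 and 0.35). Nedd9 was called higher in both sets, with all 56 high-Mest libraries above the low-Mest median without Ddx3y counts. Tph2 had low-Mest values of 0 to 2 scaled CPM (median 0.176) in that set and high-Mest values of up to 170.1 (median 2.05), so its difference rests on levels close to 0.

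Other imprinted genes were called in both directions. Of 25 tested, 7 were higher and 3 lower in Ddx3y-negative libraries, and 2 were higher and 1 lower in Ddx3y-positive ones (medians 0.07 and -0.019). Over all genes, higher calls made up 25.7% and 8.62% and lower calls 27% and 19.6%. The higher counts lay near these shares, so they mark nothing particular to imprinted genes. Those higher in both were Peg10 and Ndn, which encodes necdin (0.32 and 0.17). Nnat, which encodes neuronatin, ranged over 2.39 to 477.6 scaled CPM (median 111.9) in the low-Mest group and 42.1 to 730.5 (median 309.2) in the high-Mest group of the first set (1.33 ± 0.21, adjusted p = 6.71e-09) and was not called in the second (0.01 ± 0.20, adjusted p = 0.967), with a tested difference of -1.31 ± 0.28, adjusted p = 0.000261. Cdkn1c and Rasgrf1 were lower in the first set and Peg13 in the second. Gnas, which encodes the stimulatory G protein subunit, was lower in the first (-0.37 and -0.02, difference 0.35 ± 0.07, adjusted p = 2.43e-05). The growth genes Igf2, H19 and Dlk1 were called in neither set (-0.13, 0.10 and -0.40 without, -0.24, -0.11 and -0.01 with Ddx3y counts).

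Around Mest itself, 13 genes within 500 kb that passed the filter are described here. Copg2 (ENSMUSG00000025607, chromosome 6, 30747554 to 30896794), a subunit of the coat of Golgi vesicles, ends inside the annotated span of Mest over 912 bases on the other strand. It had 33 to 61.6 scaled CPM (median 46.4) in the low-Mest group and 49.2 to 123.2 (median 73) in the high-Mest group without and 37.9 to 64.9 scaled CPM (median 52.4) in the low-Mest group and 56.5 to 124.6 (median 84.8) in the high-Mest group with Ddx3y counts, and differed by 0.73 ± 0.04 and 0.72 ± 0.04. Whether the counting used strand is not given in the sources used here, and both ends of each pair were aligned as single reads. Reads of Mest may therefore be among those of Copg2, and its value is uncertain. Genes without that overlap also differed. Cep41, a centrosomal protein, differed by 0.82 ± 0.07, adjusted p = 9.01e-21 and 0.43 ± 0.07, adjusted p = 3.38e-07, the transcription factor Klf14 by 2.73 ± 0.33 and 1.07 ± 0.30, Tmem209 by 0.23 and 0.13, Klhdc10 by 0.08 and 0.14, and Ube2h by -0.37 and -0.21. Klf14 had medians of 0.3, 0.815, 1.98 and 4.96 scaled CPM over the 4 steps of Mest in the first set. Ssmem1 was listed at medians of 0.155 to 0.0928 scaled CPM and 0.139 to 0.139 scaled CPM and reached 51.3 in a low-Mest library of the second set. Its values were -0.63 and -2.40, and with counts capped at their 99th percentile the second became 0.031 (adjusted p = 0.934). Lncpint, a long noncoding RNA, and the 4 transcripts that overlap it (Gm13835, 2210408F21Rik, Gm37728 and 5330406M23Rik) held medians of at most 21 scaled CPM. Of these, Lncpint, Gm37728 and 5330406M23Rik were lower in Ddx3y-negative libraries (-0.59, -0.47 and -0.66) and Gm37728 also in the others (-0.46). Zc3hc1 differed by -0.10 and -0.05, and without TMM scaling the first value turned to 0.044 (adjusted p = 0.298).

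The genes most like Mest over all libraries of a set, by Spearman's rho with Mest CPM and the value nearer 0 of both sets, leaving out genes that overlap Mest, were Tsc22d2 (rho 0.58 and 0.47), Fam114a1 (0.65 and 0.47), Peg10 (0.55 and 0.46), Sec23a (0.68 and 0.46), Pcdh1 (0.47 and 0.45), Zc2hc1a (0.56 and 0.44), Ehd3 (0.61 and 0.44) and Sar1a (0.55 and 0.44). Sec23a and Sar1a encode parts of the COPII coat that carries cargo out of the endoplasmic reticulum. Their differences were small and even, 0.45 ± 0.04 and 0.32 ± 0.04 for Sec23a and 0.27 ± 0.03 and 0.22 ± 0.03 for Sar1a, with group medians of Sec23a from 49.3 to 63.5 scaled CPM and from 62.3 to 75.3 scaled CPM. Copg2, left out by that rule, had a rho of 0.83 and 0.86, but its counts may hold reads of Mest. The genes most opposed were the mitochondrial pyrophosphatase gene Ppa2 (-0.54 and -0.47), the acetyltransferase gene Kat2b (-0.46 and -0.46), Cstf1, of the cleavage factor for messenger RNA ends (-0.54 and -0.43), and the SUMO ligase gene Pias4 (-0.57 and -0.43). These values describe libraries that share depth and composition and carry no test.

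Markers of the tissue and of other cells were set beside these results. Defining fat cell genes were abundant in every group, with medians of 9876 to 9814 scaled CPM and 9744 to 8638 scaled CPM for Fabp4, 1533 to 1465 scaled CPM and 1494 to 1327 scaled CPM for Plin1, 1931 to 2219 scaled CPM and 2150 to 2586 scaled CPM for Cidec, and 2146 to 2409 scaled CPM and 1931 to 1659 scaled CPM for Adipoq, each from low to high Mest without and then with Ddx3y counts. Of the 18 genes of adipocyte identity, 3 were higher and 8 lower without Ddx3y counts (median -0.093), and 0 and 4 with them (median -0.11). Over all genes, for this and the lists below, higher calls made up 25.7% and 8.62% and lower calls 27% and 19.6%. The 4 of 18 lower with Ddx3y counts lay near the last share. The 3 were Plin4, Lpl and Cd36, which coat droplets or take up fat, and the 4 were Cfd, Pnpla2, Acvr1c and Klb. Without TMM scaling the first of these splits was 6 higher and 5 lower, and with the macrophage score as a covariate 8 and 3. Endothelial genes were higher in 7 and lower in 1 (Flt1) of 13 in the first set and higher in 1 (Cdh5) in the second (medians 0.12 and 0.038), and Pecam1, their adhesion molecule, had values of 0.19 and 0.10. Progenitor genes gave 5 higher of 14, and 2 higher with 2 lower (medians 0.075 and -0.052). Pdgfrb and Fap, of stromal cells, were higher in both sets, Cd55, Icam1 and Clec11a in the first, and Pi16 and Gsn were lower in the second. T cell genes gave 3 and 1 higher of 10 (medians 0.25 and -0.18), namely Trac in both and Cd28 and Il7r in the first, while Cd3e, of the T cell receptor complex, had values of 0.11 ± 0.19 and -0.21 ± 0.18. B cell genes gave 1 (Cd22) and 0 higher of 8 (medians 0.039 and 0.048) and mesothelial genes 1 (Wt1) and 0 lower of 10 (medians -0.083 and -0.11). Immediate early genes gave 1 higher (Fos) with 2 lower (Jun and Nr4a1), and 0 of 12 (medians 0.049 and 0.090). Clock genes gave 1 higher (Dbp) with 4 lower (Arntl, Npas2, Cry1 and Ciart), and 1 lower (Npas2), of 14 (medians -0.072 and -0.14).

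Transcripts of tissues that can enter a dissection were present in single libraries. The summed skeletal muscle list reached 8799 scaled CPM in a high-Mest library without Ddx3y counts (median of that group 29.8) and 349.6 in a low-Mest library with them. It gave 2 genes higher of 10 without Ddx3y counts and 1 lower with them by edgeR (medians 0.96 and -0.55), with Atp2a1 in both counts and Actn3 in the first, and without libraries high in other tissues 9 of 10 were lower in the first set. The epididymis list reached 17435 in a low-Mest and 3139.8 in a high-Mest library with Ddx3y counts against medians of 0.933 and 0.788, and the genes gave 1 higher (Adam28) and 1 lower (Ceacam10) of 3 in that set. Liver genes gave 2 and 1 lower of 12, Cyp2e1 in both and Apoc3 in the first, and without Cyp2e1 the sum had medians of 44.1 and 45.9 in the low-Mest and high-Mest groups of the first set and 40.4 and 33.6 in the second. Pancreas genes left 1 to test, Cela1, higher in both (1.03 and 0.55). Mammary and other epithelium gave 3 lower (Epcam, Wfdc2 and Trp63) and 0 of 6, and red blood cells 1 lower (Slc4a1) and 0 of 6.

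The middle libraries, which chose no group, offered a check on other animals. The quasi-likelihood model of edgeR was fitted to their counts with a slope on log2 Mest CPM in each set. Mest still varied 15.1-fold and 5.37-fold over these libraries. Without Ddx3y counts, 1068 genes (5.81%) had a slope above 0 and 1464 (7.97%) a slope below 0 past the threshold of edgeR. With them, 27 (0.147%) and 11 (0.0599%) did. Of the genes called higher between the groups without Ddx3y counts, 85.7% had a slope of the same direction, against 51.7% of all genes, and of those called lower 88.5% against 48.3%. For Ddx3y-positive libraries these were 76.6% against 48.1% and 73.3% against 51.9%, although 3 and 2 of them passed the threshold. Of the 27 genes with a slope above 0 there, 20 had been called lower between the groups. These 27 calls fell to 1 with limma on log2 CPM, with capped counts or at a mean of at least 10 CPM, and to 2 with blocks of mouse numbers, so no direction is read from them. At an unadjusted p under 0.05, 2.28% and 2.31% of genes had slopes above and below 0 in that set.

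By list, the middle Ddx3y-negative libraries gave slopes below 0 in 23 of 25 oxidative phosphorylation genes, 12 of 20 genes of branched-chain amino acid breakdown, 9 of 13 of thermogenesis and 10 of 19 of fatty acid synthesis, and above 0 in 4 of 9 companions and 6 of 23 matrix genes. Npr3 had a slope of 0.21, adjusted p = 0.00427 per doubling of Mest, Inhbb of 0.21, adjusted p = 0.000675 and Atp5b of -0.13, adjusted p = 0.00254. None of the 22 macrophage and 18 mitosis genes had a slope past the threshold there, with a median slope of -0.038 and 0.067. Lep (0.20, adjusted p = 0.138) and Sfrp5 (0.24, adjusted p = 0.17) did not pass either. A slope that missed the threshold is not shown to be 0.

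No difference in depth or numbering was detected between the groups. Total expected counts were 82.5 ± 12.7 M in the low-Mest and 84.2 ± 13.8 M in the high-Mest group without Ddx3y counts (SD, n = 56 each) and 82.1 ± 11.6 M and 83.5 ± 10.8 M with them (n = 60 each), with an adjusted p of 0.62 in both by two-sided permutation tests over 6 comparisons. Mouse numbers and library numbers had adjusted p-values of 0.62 to 0.942 in the same tests. Over all libraries totals ran from 35.3 to 137.8 M with a median of 82.04 M. In 2 Ddx3y-negative libraries Xist was low as well, and leaving them out gave 4683 higher and 4929 lower genes.

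Promoter letters were compared between the called genes and all tested genes. RefSeq windows of 250 bases before to 50 bases after a start were found for 12669 tested genes by symbol, and the first window of each gene was used. The median count of CG pairs in a window was 22 over 998 genes higher in both sets, 21 over 1875 lower in both and 19 over all. The GC box GGGCGG, on either strand, was in 68.5% and 63.1% of these windows and in 59.8% of all, the CCAAT box in 40.7%, 39.2% and 38.1%, TATAAA in 7.21%, 5.33% and 7.9%, and CACGTG in 9.82%, 9.76% and 9.57%. A match describes letters and not a bound site. The upstream bases of Lep, higher in both sets (chr6:29059971-29060220, plus strand), and of Cfd, lower in both (chr10:79890603-79890852, plus strand), are given as examples of how widely single promoters differ, with 16 and 2 CG pairs in capitals. The medians above do not separate higher from lower genes in this way.
Lep upstream: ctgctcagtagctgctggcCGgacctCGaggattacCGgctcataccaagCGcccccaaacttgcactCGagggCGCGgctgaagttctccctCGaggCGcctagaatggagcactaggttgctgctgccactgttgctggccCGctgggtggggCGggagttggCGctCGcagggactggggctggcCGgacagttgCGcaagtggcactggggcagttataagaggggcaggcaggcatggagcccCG
Cfd upstream: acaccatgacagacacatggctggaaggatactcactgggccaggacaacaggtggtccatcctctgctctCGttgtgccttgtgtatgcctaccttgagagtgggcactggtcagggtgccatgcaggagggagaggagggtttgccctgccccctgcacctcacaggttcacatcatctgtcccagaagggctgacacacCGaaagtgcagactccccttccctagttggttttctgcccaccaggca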

How the data were processed

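RNA from adipose tissue of 468 Diversity Outbred mice was sequenced as polyadenylated libraries. According to the study's methods, the authors aligned both ends of each pair as single reads to a transcriptome joined from the founder strains and estimated gene abundance with EMASE through GBRS. The expected counts they deposited (23180 genes, build GRCm38 per the processing notes) are not normalized, and 66.78% of the values are whole within 1e-06, so they were rounded. The authors also deposited log2 values from the variance stabilizing transformation of DESeq2, which served as an alternative. Whether these values were taken before or after the batch correction in the study's methods is not given in the sources used here. Their deposited gene positions, in megabases, were used only to place genes, and all gene IDs were found in GENCODE M21, with the same position for 99.18%. All sample columns were used.

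CPM is the expected count divided by the total of the library, times 1000000. Of 468 libraries, 227 held no Ddx3y count and 241 did, 232 fell into the high-Mest and low-Mest groups, and 115 and 121 are the middle libraries. Genes with at least 10 counts in at least 50% of libraries (18380) were kept. Mest and genes of the Y chromosome, 10 in all, chose or mark the groups and were not tested. The 4 groups entered 1 quasi-likelihood fit of edgeR 4.0.16 (R 4.3.3) with TMM scaling, contrasts for each set and for the difference between sets, and Benjamini-Hochberg adjustment over 18370 genes at 0.05. Middle libraries were fitted in a model of their own with 1 slope per set. The tests are two-sided. Each library is a separate mouse, so p-values measure the spread between mice. The mice were treated as independent. Kinship, which the study's eQTL models held as a random effect, did not enter the fits.

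Where the mean reached 10 CPM and the gene did not overlap Mest, the genes named were the 12 higher and 12 lower genes called in both sets with the largest smaller absolute difference, the 5 in each direction with the smallest p of the difference between sets, and the 8 most and 4 least like Mest by Spearman's rho of log2 CPM. Whatever their level or overlap, the text also names the genes within 500 kb, all companions, Lep, and the most abundant or defining genes of each list. Other members of lists were named for their role after their values were seen. Some genes that met these rules are not reported here. They stay in the fits and in the counts over lists. The groups, the 29 gene lists and the tests were chosen with earlier results of these data known.

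The alternatives were DESeq2 1.42.0, limma 3.58.1 on log2 CPM (prior count 2) and on the deposited log2 values, no TMM scaling, other filters and group limits, counts capped at the 99th percentile, blocks of mouse or library numbers, libraries left out, and a macrophage score as a covariate. The score was the mean z of log2 CPM over the macrophage list. The study's methods used sex, generation and wave, which the labels do not give, so none entered the fits as a covariate. The division by Ddx3y counts stands in place of sex.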

Additional observations from a re-analysis of the deposited data

Results flagged for a closer look

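Among the genes named by rule, 61 differed between the sets of libraries in their response, by edgeR's test of the difference between the log2 difference of high against low Mest with and without Ddx3y counts (Benjamini-Hochberg adjusted over all genes tested). Values are given as Ddx3y-positive minus Ddx3y-negative, and p-values are adjusted. A negative value of a gene that is higher with high Mest means a smaller difference in Ddx3y-positive libraries. The groups of both sets were taken at different Mest levels, which spanned a ratio of medians of 53.6 in Ddx3y-negative and 18.5 in Ddx3y-positive libraries. A slope per doubling of Mest over all libraries of each set does not use these groups. It gave 1473 genes with a value above 0 and 2002 with one below 0, against 1515 and 2128 between the groups. How far the different Mest levels set the values of single genes was not tested.

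Among the companions of Mest and other genes of fat expansion the values were below 0 for Sfrp5 (-2.03 ± 0.33, p = 9.31e-07), Npr3 (-1.14 ± 0.19, p = 2.26e-06), Bmp3 (-0.65 ± 0.20, p = 0.0127), Cav1 (-0.40 ± 0.09, p = 0.000968), Cav2 (-0.44 ± 0.10, p = 0.00109), Cavin1 (-0.36 ± 0.09, p = 0.00124), Cavin2 (-0.28 ± 0.09, p = 0.0225) and Nkd1 (-0.47 ± 0.16, p = 0.0232). Secreted products and signalling genes below 0 were Lep (-1.38 ± 0.30, p = 0.000298), Fzd4 (-0.39 ± 0.09, p = 0.000338) and Inhbb (-0.63 ± 0.14, p = 0.000525). The imprinted gene Nnat (-1.31 ± 0.28, p = 0.000261) and, near Mest, Klf14 (-1.66 ± 0.43, p = 0.00249), Cep41 (-0.39 ± 0.10, p = 0.00247) and Ssmem1 (-1.77 ± 0.48, p = 0.00408) were also below 0. The value of Ssmem1 was 0.667 with capped counts. Among macrophage genes the values were Mmp12 (-3.70 ± 0.52, p = 1.14e-08), Atp6v0d2 (-3.17 ± 0.45, p = 2.25e-08), Itgax (-2.86 ± 0.44, p = 2.3e-07), Gpnmb (-2.24 ± 0.44, p = 5.33e-05), Cd68 (-1.0 ± 0.25, p = 0.00199), Lyz2 (-0.76 ± 0.20, p = 0.0031), Adgre1 (-0.66 ± 0.23, p = 0.0257), Csf1r (-0.40 ± 0.14, p = 0.0242) and Mrc1 (-0.38 ± 0.13, p = 0.0278).

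For dividing cells these were Mki67 (-0.88 ± 0.26, p = 0.0091), Top2a (-0.83 ± 0.25, p = 0.0116) and Ccna2 (-0.68 ± 0.24, p = 0.0306). Further genes of other cells and of the matrix were Il7r (-1.07 ± 0.30, p = 0.00622), Ptprb (-0.22 ± 0.08, p = 0.0265), Gsn (-0.37 ± 0.12, p = 0.0182) and Sparc (-0.35 ± 0.12, p = 0.0248). Below 0 were also Tph2 (-5.24 ± 0.69, p = 1.98e-09), Slc5a7 (-2.54 ± 0.46, p = 1.13e-05), 1700047G03Rik (-2.15 ± 0.35, p = 1.39e-06), 2010016I18Rik (-0.92 ± 0.35, p = 0.046), Fgf13 (-1.20 ± 0.28, p = 0.000667), Plppr4 (-1.21 ± 0.35, p = 0.00687), Cacna1e (-0.95 ± 0.34, p = 0.0307), Nedd9 (-0.73 ± 0.11, p = 3.33e-07), Ehd3 (-0.48 ± 0.17, p = 0.0337) and Fam114a1 (-0.30 ± 0.10, p = 0.0174). Of these, 2010016I18Rik was lower with high Mest in both sets.

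Values above 0 came from genes whose difference was further below 0 in Ddx3y-negative libraries. Several of them, such as Acacb, Sdha, Atp5b, Rgs2 and Tst, were called lower in both sets and differed in size only. Fatty acid enzymes above 0 were Elovl5 (0.66 ± 0.08, p = 8.94e-11), Elovl6 (1.53 ± 0.32, p = 0.000205), Fasn (0.89 ± 0.21, p = 0.000869), Acacb (0.95 ± 0.23, p = 0.000885), Acsl5 (0.99 ± 0.14, p = 8.26e-09), Adtrp (1.32 ± 0.17, p = 1.98e-09) and Echdc1 (0.87 ± 0.12, p = 3.67e-09). Mitochondrial and thermogenic genes above 0 were Atp5a1 (0.47 ± 0.10, p = 0.000227), Atp5b (0.34 ± 0.12, p = 0.0278), Sdha (0.44 ± 0.12, p = 0.0056), Dld (0.50 ± 0.12, p = 0.000885), Hadh (0.40 ± 0.12, p = 0.0118), Cidea (1.19 ± 0.36, p = 0.0105) and Cpt1b (1.33 ± 0.32, p = 0.000968). The others above 0 were Aldoa (0.42 ± 0.11, p = 0.00463), Ldha (0.35 ± 0.09, p = 0.00203), Gnas (0.35 ± 0.07, p = 2.43e-05), Pim1 (1.21 ± 0.16, p = 2.31e-09), Rgs2 (0.68 ± 0.24, p = 0.0322) and Tst (0.80 ± 0.23, p = 0.0071).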

How the results depend on the processing

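Among numbers of called genes, all but 36 values under the alternatives lay within 1.5 times the reported count. Without Ddx3y counts, no TMM scaling gave 8033 higher and 2242 lower genes and a mean of at least 10 CPM, which tests fewer genes, gave 3041 and 3237. With Ddx3y counts, leaving out libraries high in other tissues, ranked by a sum made up mostly of Cyp2e1, gave 842 higher and 1812 lower genes. With Cyp2e1 not counted, an alternative chosen after seeing the data, these were 1441 and 3316. In the same set the minimum of 10 CPM gave 2254 lower and the macrophage covariate 2131 lower. Differences between sets above 0 numbered 717 without TMM scaling and 2329 without libraries high in other tissues (1580 with Cyp2e1 not counted). Those below 0 numbered 1146 with limma on log2 CPM, 1013 with limma on the deposited log2 values, 5634 without TMM scaling, 1285 at 10 CPM, 1341 with libraries divided at the median of Mest, 1347 with blocks of library numbers, 1392 without the 10% shallowest libraries, 1335 with the macrophage covariate and 1197 without the libraries highest in macrophage score, an alternative chosen after seeing the data. In middle libraries without Ddx3y counts, no TMM scaling gave slopes above 0 in 20.2% and below 0 in 3.22% of genes tested, and the minimum of 10 CPM in 9.29% and 12.4%. In those with Ddx3y counts, slopes above 0 numbered 43 with DESeq2, 1 with limma on log2 CPM, 99 without a filter, 1 at 10 CPM, 1 with capped counts, 2 with blocks of mouse numbers and 15 with blocks of library numbers. Slopes below 0 there numbered 0 with limma on log2 CPM, 39 without a filter, 0 at 10 CPM, 0 with capped counts, 4 with blocks of mouse numbers and 5 with blocks of library numbers. The cause was not tested for any of these beyond what each alternative itself changes.

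For single genes, 8296 values kept direction and side of the threshold, 3.3% of all values lost and 1.57% gained a call, and 25 changed sign. With the macrophage covariate these were, without Ddx3y counts, Adgre1 (-0.207), Cd68 (-0.062), Csf1r (-0.049), Col3a1 (-0.099), Mrc1 (-0.022), Plin1 (0.178), Cd22 (-0.04), Adrb3 (0.14), Scd1 (0.252) and Lyz2 (-0.033), with them Csf1r (-0.109), and for the difference between sets Il7r (0.083), Adgre1 (0.14), Cd68 (0.058) and Gpnmb (0.165). Of these, Adgre1, Cd68, Csf1r, Mrc1, Lyz2 and Gpnmb are part of the macrophage score itself, so this covariate cannot test them. Without TMM scaling Clock (0.131), Lrp6 (0.133) and Zc3hc1 (0.044) turned in Ddx3y-negative libraries. Ssmem1 turned with Ddx3y counts in limma on log2 CPM (0.049) and with capped counts (0.031), and its difference between sets did so in limma on log2 CPM (0.647), in limma on the deposited log2 values (0.073), with capped counts (0.667) and with blocks of library numbers (0.077). The difference for Copg2 was 0.041 with a slope over all libraries. No paired analysis was possible because each mouse gave 1 library and the labels pair none. Depth, at 35.3 to 137.8 M per library, limits genes near 0 CPM most.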
